A study of Mus musculus with 8 samples.

Results

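Angptl4, Pdk4, Plin2, Cpt1a, Ucp2, Cat and Acaca are 7 genes of lipid and oxidant metabolism that are widely used as readouts of the peroxisome proliferator-activated receptors (PPARs). They were taken by gene name from the 35756 rows of the deposited count table, and each had 1 row. All 7 passed the filter on low counts, which kept 14539 genes for testing. The RNA came from endothelial cells of subcutaneous LLC1 tumors, a Lewis lung carcinoma line, in mice whose strain the labels give as C57BL/6 and whose Tie2-CreERT2 line had been back-crossed to C57BL/6J. All donors carried Tie2-CreERT2, a recombinase driven in Tie2-expressing cells and active only with Tamoxifen, together with the allele PPARβ/δ-flox+/−, from which recombined cells overexpress PPARβ/δ. The 4 Tamoxifen mice received 33 mg/kg per day for 1 week, and the 4 vehicle mice received sunflower oil. LLC1 cells were given 1 week after the last injection and the tumors grew for 3 weeks. The cells were collected on CD31 MicroBeads, so CD31-bearing cells other than endothelium could be retained. Age and sex of the mice are given only as matched. In the labels the vehicle mice are wild-type and the Tamoxifen mice overexpress Ppard, although by the methods their genotype was one and the same. Tie2-CreERT2 mice without that allele are not analysed here, so effects of Tamoxifen or of the active Cre cannot be told apart from those of added PPARβ/δ.

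PPARs are nuclear receptors that bind fatty acids and their derivatives, pair with a retinoid X receptor (RXR) and act at DNA elements made of direct repeats. Without ligand they can hold co-repressors at the same elements, so target genes may respond to receptor level, ligand or both. In endothelium PPARβ/δ is the isoform best known for promoting vessel growth. Angptl4 encodes a secreted protein that inhibits lipoprotein lipase and also acts on vessel permeability. Pdk4 encodes a kinase that switches off pyruvate dehydrogenase and so spares glucose. Cpt1a encodes the outer mitochondrial membrane enzyme that commits long-chain fatty acids to oxidation. Plin2 encodes a coat protein of lipid droplets. Ucp2 encodes a carrier of the inner mitochondrial membrane, Cat encodes the peroxisomal enzyme catalase, and Acaca encodes the acetyl-CoA carboxylase that makes malonyl-CoA, the building block of fatty acids and an inhibitor of Cpt1a.

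The 7 genes lie on 7 chromosomes, given here as in the deposited table, whose positions are those of GRCm38. Angptl4 (ENSMUSG00000002289) lies on chromosome 17 from 33773750 to 33781575 on the minus strand, and Pdk4 (ENSMUSG00000019577) on chromosome 6 from 5483351 to 5496309 on the minus strand. Plin2 (ENSMUSG00000028494) occupies chromosome 4 from 86648386 to 86670060, minus strand, and Cat (ENSMUSG00000027187) chromosome 2 from 103453849 to 103485160, minus strand. On the plus strand are Cpt1a (ENSMUSG00000024900, chromosome 19 from 3323301 to 3385732), Ucp2 (ENSMUSG00000033685, chromosome 7 from 100493337 to 100502020) and Acaca (ENSMUSG00000020532, chromosome 11 from 84129672 to 84401651). The counts are per gene and do not separate isoforms.

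The element that PPAR and RXR share is described as 2 direct copies of AGGTCA with 1 base between them, which fixes 12 bases. RefSeq start sites (GRCm38.p6) with 250 bases before and 50 after were matched for 6 of the 7 genes, all but Angptl4, and both strands were searched for the stretch that matches most of the 12 bases. These stretches are shown because they are where the members differ in a feature not taken from expression. Capitals mark the bases that match.
Cat: AGGTCAgAGaaCA
Plin2: AGGTCAggGGTCc
Pdk4: AGccCAaAGtTCt
Ucp2: gGGTaAggGGTCg
Cpt1a: ttGTCctAGGTCt
Acaca: AGGTtAttGcTtA
Cat and Plin2 matched 10 of 12 bases, and 3.86% of the 32851 promoters of the same length matched at least 10. The Cat stretch is on the gene's own strand, from position -204 to -192 relative to the start, and that of Plin2 on the opposite strand, from -225 to -213. Pdk4, Ucp2, Cpt1a and Acaca matched 8 of 12, and 79.8% of promoters matched at least 8. A single AGGTCA on either strand was present in Cat, Plin2 and Cpt1a, as in 16.3% of promoters. The Acaca start used lies inside the gene's span in the deposited table. Bases outside these windows were not searched, and binding of a PPAR at the matching stretches was not tested. For the 2 closest matches the whole window is given, from chr2:103485104-103485403 and chr4:86670010-86670309, both read on the minus strand, with the matching stretch in capitals (for Plin2 as read on the gene's strand).
Cat: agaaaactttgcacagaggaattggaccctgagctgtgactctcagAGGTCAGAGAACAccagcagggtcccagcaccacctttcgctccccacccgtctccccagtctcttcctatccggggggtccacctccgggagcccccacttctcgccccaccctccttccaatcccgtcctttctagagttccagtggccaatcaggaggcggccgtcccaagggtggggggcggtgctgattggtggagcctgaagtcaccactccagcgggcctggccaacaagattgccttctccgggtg
Plin2: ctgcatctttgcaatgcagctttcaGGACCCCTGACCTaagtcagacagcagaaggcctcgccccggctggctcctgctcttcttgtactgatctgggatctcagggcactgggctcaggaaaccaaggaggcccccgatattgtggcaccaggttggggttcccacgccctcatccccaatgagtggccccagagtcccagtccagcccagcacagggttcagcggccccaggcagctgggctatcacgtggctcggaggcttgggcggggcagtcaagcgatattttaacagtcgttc

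The libraries held 19730726 to 24884372 counted reads each. Levels below are in CPM, reads scaled to a library of common size by TMM. The vehicle library oil2453 stood apart. Ribosomal protein genes took 22.4% of its reads, against 4.88% to 11.0% in the other 7, and hemoglobin genes 0.474% against 0.00229% to 0.0568%. A principal component with 43.6% of the variance set it apart from the other 7. Among summed marker levels, erythroid genes reached 6280 CPM there against at most 525 elsewhere, and the 15 macrophage and monocyte genes 5178 CPM against at least 8712. Pan-endothelial genes summed to 431 to 1916 CPM in the vehicle and 2790 to 5447 CPM in the Tamoxifen libraries, with all 20 tested and positive in log2 fold change. Mural cell genes summed to 58.1 to 234 CPM and 654 to 962 CPM. In bulk libraries fewer cells of a type and less RNA per cell cannot be told apart. Fold changes of Ppard and the 7 members are given below with and without oil2453. Those of several other genes, and several list medians, are given with all libraries only. Marker lists stand beside some of the members.

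Ppard, the overexpressed receptor, was at 122, 70.9, 120 and 118 CPM in the Tamoxifen libraries Tax2604, Tax2689, Tax2382 and Tax2455. In the vehicle libraries oil2453, oil2315, oil2653 and oil2368 it was at 74.1, 88.3, 53.4 and 81.9 CPM. The same library order is kept for every gene below. Tax2689 lay among the vehicle libraries and the other 3 Tamoxifen libraries above all of them. The log2 fold change was 0.53 (SE 0.25, edgeR adjusted p = 0.460, 95% confidence interval -0.02 to 1.09), and it was 0.53 without oil2453 (edgeR adjusted p = 0.554). Whether reads of the conditional allele count towards Ppard is not stated.

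Of the 7 PPAR target genes, 0 passed the edgeR quasi-likelihood test at an adjusted p under 0.05, as did 0% of the 14539 genes. Before adjustment, 1590 genes had a p under 0.05, 7.39% of those tested higher and 3.54% lower, and 0 of the 7 were among them. limma-voom also called 0 genes, and DESeq2 called 574, 3.78% of the genes tested being called higher, with 0 of the 7 among them, although DESeq2 gave no p for Angptl4, which its rule for outlying counts set aside. The log2 fold change was positive for 6 of the 7 and for 6865 of all 14539 genes. Its median was 0.24 over the 7 and -0.03 over all genes. In 0 of the 7 were the 2 groups of libraries free of overlap, whereas 5.87% of the genes had all Tamoxifen libraries above, and 2.01% below, the whole vehicle group. Leaving out oil2453 changed the call for Angptl4, which was then 1 of 256 genes called higher among 14860, or 1.72%, and for none of the other 6.

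**Figure D1:**
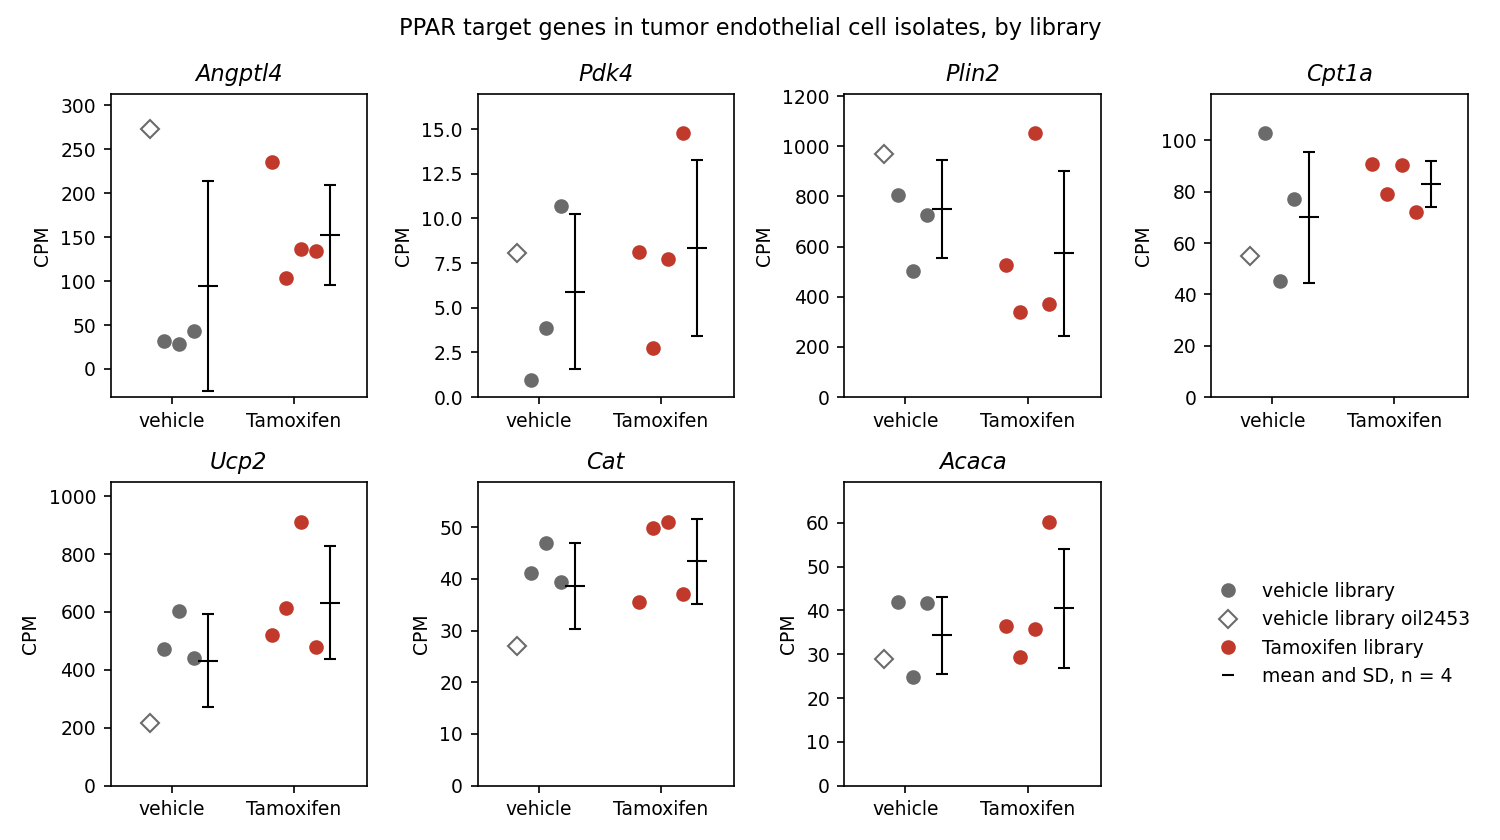
Level of each of the 7 PPAR target genes in CPM (vertical axes, linear, 1 scale per gene) in the 4 vehicle and 4 Tamoxifen libraries. Each point is 1 library, the open diamond is oil2453, and the black bar gives the mean and SD of the 4 libraries. For Angptl4, oil2453 at 273 CPM lies above every other library and the other vehicle libraries, at 28.8 to 43.6 CPM, lie below all Tamoxifen libraries, while for the other genes the groups overlap.

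Angptl4, the lipase inhibitor, separated the groups only with oil2453 set aside. It was at 235, 103, 137 and 135 CPM in the Tamoxifen libraries and at 273, 32.3, 28.8 and 43.6 CPM in the vehicle libraries, from 672 to 4785 counted reads. All Tamoxifen libraries thus exceeded oil2315, oil2653 and oil2368. In CPM oil2453 was the highest of all 8, at 7.81 times the mean of the other vehicle libraries. That top rank depended on the scaling. On the deposited FPKM (per gene length) Tax2604 was the highest, at 161, and oil2453 followed at 137.5. The TMM factor of oil2453 was 0.761, against 0.946 to 1.10 in the other libraries. The means were 152.5 ± 57.1 CPM (SD, n = 4) and 94.4 ± 119 CPM (SD, n = 4). With all libraries the log2 fold change was 0.69 (SE 0.71, edgeR adjusted p = 0.717, 95% confidence interval -0.89 to 2.28), and an exact two-sided permutation test gave p = 0.143.

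Without oil2453 the vehicle mean of Angptl4 fell to 34.9 ± 7.76 CPM (SD, n = 3), a 4.37-fold difference. The lowest Tamoxifen library was then 2.37 times the highest vehicle library, and 8.65% of the genes tested were likewise higher without overlap. The log2 fold change was 2.13 (SE 0.32, edgeR adjusted p = 0.0382, 95% confidence interval 1.41 to 2.86). DESeq2 gave 2.14 (adjusted p = 4.36e-08), in a fit that called 5.27% of 14860 genes higher. An exact two-sided permutation test of these 7 libraries gave p = 0.0571, the smallest that 4 against 3 allow. The edgeR call rested on few libraries. With oil2453 and 1 further library left out, the log2 fold change stayed between 1.84 and 2.33 but the edgeR adjusted p ranged from 0.0282, without oil2368, to 0.167, without oil2653, and passed the threshold in the former case only.

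**Figure D2:**
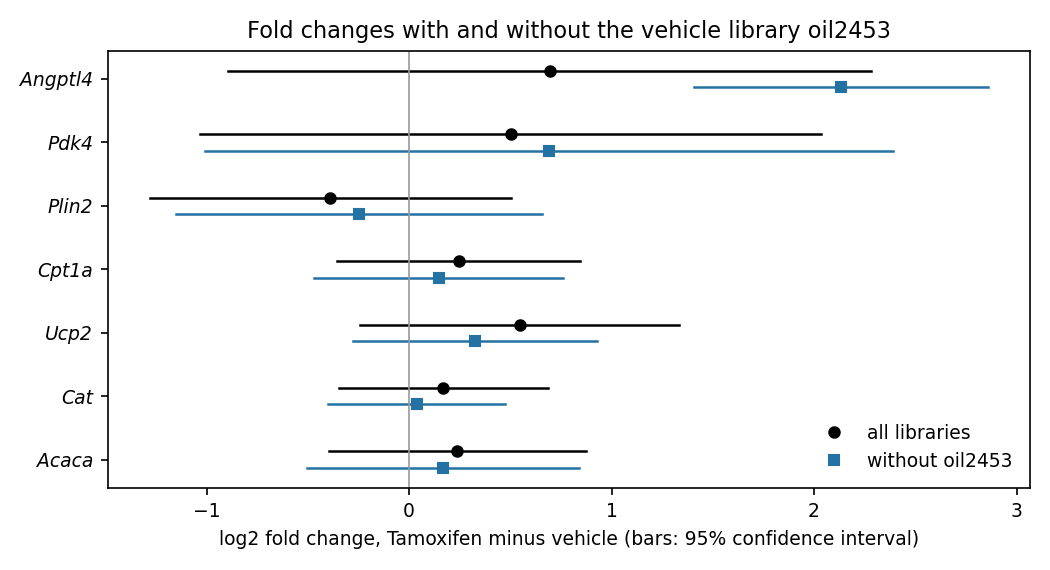
Log2 fold change, Tamoxifen minus vehicle, of the 7 genes from the edgeR fit with all 8 libraries (black circles) and without oil2453 (blue squares). Horizontal bars are 95% confidence intervals. Only the interval of Angptl4 without oil2453, 1.41 to 2.86, lies clear of 0.

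Pecam1, which encodes the CD31 used for the purification, was at 987, 757, 1073 and 612 CPM in the Tamoxifen libraries and at 291, 215, 294 and 416 CPM in the vehicle libraries, without overlap (log2 fold change 1.50, SE 0.30, edgeR adjusted p = 0.0871). Relative to Pecam1 in the same library, Angptl4 was 0.238, 0.137, 0.128 and 0.220 with Tamoxifen and 0.938, 0.151, 0.0978 and 0.105 with vehicle. On that quotient the Tamoxifen libraries overlapped with oil2315, the highest of the 3 other vehicle libraries, and oil2453 was again the highest. The part of endothelial content in the difference was not tested.

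Oil2453 had the highest Angptl4 in CPM without the highest endothelial marker sum, 1916 CPM against at least 2790 CPM in the Tamoxifen libraries. Genes known to be induced by hypoxia, by which Angptl4 is also regulated, summed to 15573 CPM in oil2453 against 7232 to 13058 CPM in the other 7 libraries. Those known to be induced by glucocorticoids, another known regulator of Angptl4, summed to 6053 CPM against 2276 to 3547 CPM. The lowest hypoxia sum, 7232 CPM, was that of Tax2604, with Angptl4 at 235 CPM. In oil2315 that sum was 10781 CPM, with Angptl4 at 32.3 CPM. In each list 1 gene was higher in every Tamoxifen library than in all vehicle libraries, beside 5.87% of all genes. Hk2, of the hypoxia list, was at 253 CPM in oil2453 and 311 CPM in oil2315. Other single genes of both lists were high in oil2453. Adm, a hypoxia-induced peptide hormone, was at 303 CPM there and at 21.7 to 73.5 CPM elsewhere, and Sgk1, a glucocorticoid-induced kinase, at 945 CPM and 203 to 413 CPM. Fibroblast genes summed to 2991 CPM in oil2453, 1275 to 1495 CPM in the other vehicle and 717 to 3220 CPM in the Tamoxifen libraries. Abundant genes weigh most in that sum. With each gene weighed alike, the list's mean relative log2 level was -0.27 in oil2453 and -0.75 to 0.15 in the other vehicle libraries. Col1a1 was at 35.6 CPM in oil2453, 176 CPM in oil2653 and 23.6 CPM in oil2315. Epithelial and tumor genes summed to 770 CPM in oil2453 against at most 231 CPM elsewhere. Of the adipocyte genes, whose cells also make Angptl4, Adipoq stayed at or below 0.339 CPM in all 8 libraries and Plin1 at or below 0.127 CPM. Of this list of 10, Lipe and Fabp4 alone passed the low-count filter. The list's sum was 398 CPM in oil2453, 32.0 to 135 CPM in the other vehicle and 98.5 to 271 CPM in the Tamoxifen libraries. Fabp4, a gene of capillaries as well as fat, made up most of it. Fabp4 alone was at 390 CPM in oil2453, 22.4 to 124 CPM in the other vehicle and 89.8 to 250 CPM in the Tamoxifen libraries. The part of these lists, adipocyte genes included, in the level of oil2453 was not tested.

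**Figure D3:**
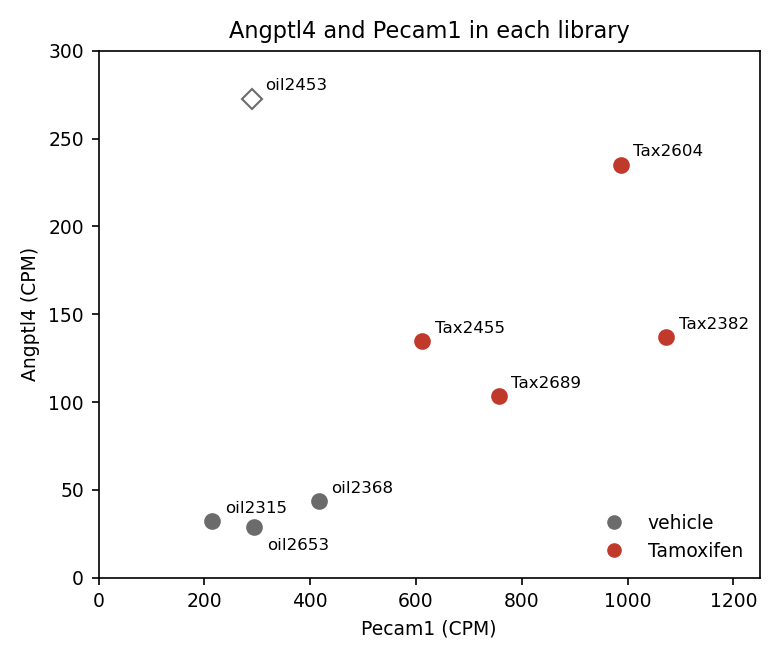
Angptl4 (vertical axis, CPM) against Pecam1 (horizontal axis, CPM) in each of the 8 libraries, vehicle in grey and Tamoxifen in red, with oil2453 as an open diamond. The Tamoxifen libraries are high in both genes, 3 vehicle libraries are low in both, and oil2453 combines 273 CPM of Angptl4 with 291 CPM of Pecam1.

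Among the other proteins of the angiopoietin-like and lipase system, 9 of 13 listed genes including Angptl4 were tested and 0 were called with all libraries. Their median log2 fold change was -0.32. Gpihbp1, the protein that carries lipoprotein lipase to the capillary lumen, was at 256, 255, 234 and 144 CPM with Tamoxifen and at 236, 14.9, 38.8 and 53.6 CPM with vehicle. As for Angptl4, the vehicle libraries other than oil2453 lay below all Tamoxifen libraries, while oil2453 lay among the latter and not above them. Its log2 fold change was 1.37 (SE 0.71, edgeR adjusted p = 0.481) and rose to 2.64 without oil2453 (SE 0.43, edgeR adjusted p = 0.0382). Lpl, the lipase itself, was at 10.8, 67.3, 138 and 12.9 CPM with Tamoxifen and at 5.07, 77.6, 77.4 and 65.7 CPM with vehicle, and was lowest in oil2453. Angptl7 was at 19.6 CPM in oil2453 and at 0.183 to 2.07 CPM elsewhere. Without oil2453 the list median was 0.07, and 2 of its 9 genes, Angptl4 and Gpihbp1, were called, beside 1.72% of all genes called higher.

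Pdk4, which restrains pyruvate oxidation, was the lowest of the members. It was at 8.11, 2.75, 7.73 and 14.8 CPM with Tamoxifen and at 8.08, 0.974, 3.86 and 10.7 CPM with vehicle, the extremes 15.2-fold apart. The lowest value, in oil2315, rested on 21 reads. The groups overlapped over nearly their whole range, and oil2453 lay inside it. The means were 8.34 ± 4.93 and 5.90 ± 4.33 CPM (SD, n = 4), and the log2 fold change was 0.50 (SE 0.68, edgeR adjusted p = 0.798, 95% confidence interval -1.03 to 2.04). That interval runs from 0.488-fold to 4.10-fold, and a change within it was not resolved at this spread. Without oil2453 the value was 0.69 (edgeR adjusted p = 0.821).

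The enzymes around Pdk4 were all tested, 13 of 13, with 0 called and a median log2 fold change of -0.18. Dld, the shared dihydrolipoamide dehydrogenase subunit, was lower in every Tamoxifen library, at 77.7 to 97.4 CPM against 108 to 138 CPM (log2 fold change -0.48, SE 0.18, edgeR adjusted p = 0.377). It was the only one of the 13 free of overlap, where 2.01% of all genes were lower in that way. The other kinases that act like Pdk4 overlapped between the groups. Pdk1, the hypoxia-induced one, was at 202 CPM in oil2453 and at 79.5 to 134 CPM in the other 7 libraries. Mpc2, a subunit of the mitochondrial pyruvate carrier, had a log2 fold change of -0.59 (edgeR adjusted p = 0.462) and Pdhb, a subunit of pyruvate dehydrogenase, of -0.40 (edgeR adjusted p = 0.478).

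Cpt1a, the gate of mitochondrial fatty acid oxidation, was at 90.8, 79.0, 90.3 and 72.0 CPM with Tamoxifen and at 54.9, 103, 45.4 and 77.0 CPM with vehicle. The vehicle libraries lay on both sides of the Tamoxifen libraries, which varied less. The means were 83.0 ± 9.13 and 70.0 ± 25.6 CPM (SD, n = 4). With a log2 fold change of 0.24 (SE 0.27, edgeR adjusted p = 0.740, 95% confidence interval -0.36 to 0.85), changes beyond 1.80-fold up lay outside the interval. It was 0.15 without oil2453 (edgeR adjusted p = 0.893) and became -0.12 when oil2653 was left out as well. The carnitine shuttle had 7 of 8 genes tested, 0 called and a median log2 fold change of 0.02. Slc22a5, the cell's carnitine importer, had a log2 fold change of 0.19 (edgeR adjusted p = 0.744), and the brain-enriched Cpt1c of -0.38 (edgeR adjusted p = 0.765). The muscle form Cpt1b did not pass the low-count filter.

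Plin2 was the one member with a lower mean after Tamoxifen. It was at 527, 340, 1052 and 372 CPM with Tamoxifen and at 967, 804, 502 and 726 CPM with vehicle. Tax2382 was the highest of all 8 libraries, and 2 of the other 3 Tamoxifen libraries lay below every vehicle library. The means were 573 ± 330 and 750 ± 193 CPM (SD, n = 4), with a log2 fold change of -0.39 (SE 0.40, edgeR adjusted p = 0.717, 95% confidence interval -1.28 to 0.50). Without oil2453 the value was -0.25 (edgeR adjusted p = 0.879), and without Tax2382 it was -0.86. The macrophage and monocyte gene sum, from cells that also hold lipid droplets, was highest in Tax2382 too, at 16088 CPM against 5178 to 12896 CPM in the other libraries. The other libraries did not keep that order. The sum was lowest in oil2453, where Plin2 in CPM was below Tax2382 alone, and was 12825 CPM in Tax2689, where Plin2 was lowest. On the deposited FPKM, Plin2 in oil2453, at 854, was also below oil2315 and oil2368, at 1000 and 857. The part of such cells in the Plin2 level was not tested.

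Lipid droplet genes were 18 in number, and 12 were tested with 0 called by edgeR and a median log2 fold change of -0.13. Plin1, Plin4, Plin5, Cidea, Cideb and Cidec did not pass the low-count filter, and of the perilipins Plin2 and Plin3 did. Mgll, which encodes monoacylglycerol lipase, was at 111, 106, 89.5 and 64.3 CPM with Tamoxifen and at 41.7, 5.52, 17.0 and 34.9 CPM with vehicle, higher without overlap, as were 5.87% of all genes tested. It was the 1 gene of the 12 that DESeq2 called higher, beside 3.78% of all genes. Its log2 fold change was 1.91 (SE 0.53, edgeR adjusted p = 0.183) and 2.28 without oil2453 (edgeR adjusted p = 0.0821). Fitm2, which takes part in droplet formation, was at 38.2 CPM in oil2453 and 4.72 to 13.8 CPM elsewhere (log2 fold change -1.11, edgeR adjusted p = 0.474).

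Ucp2 and Cat followed a like order across the libraries, which did not separate the groups. Ucp2, the mitochondrial carrier, was at 520, 615, 912 and 479 CPM with Tamoxifen and at 216, 472, 602 and 439 CPM with vehicle. Cat, the peroxide-degrading catalase, was at 35.6, 49.9, 51.1 and 37.1 CPM with Tamoxifen and at 27.0, 41.1, 46.9 and 39.4 CPM with vehicle. Both were lowest in oil2453 and highest in Tax2382, and the groups overlapped in both. Across the 8 libraries their log2 levels had a Pearson's r of 0.92 (Spearman's rho 0.79), the closest pair among the 7 genes, and an r of 0.79 without oil2453. The libraries shared by both genes differ in composition, and this r is a description.

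For Ucp2 the means were 631 ± 196 and 432 ± 160 CPM (SD, n = 4), and the log2 fold change of 0.55 (SE 0.35, edgeR adjusted p = 0.550, 95% confidence interval -0.24 to 1.33) was the second largest among the members. It fell to 0.33 without oil2453 (edgeR adjusted p = 0.754). Cat had means of 43.4 ± 8.22 and 38.6 ± 8.35 CPM (SD, n = 4) and a log2 fold change of 0.17 (SE 0.23, edgeR adjusted p = 0.796, 95% confidence interval -0.35 to 0.69), or 0.04 without oil2453 (edgeR adjusted p = 0.964). Changes of Cat beyond 1.61-fold up or below 0.786-fold lay outside that interval. Ucp2 is abundant in macrophages, whose marker genes were lowest in oil2453 at 5178 CPM in sum and highest in Tax2382 at 16088 CPM. Csf1r, a macrophage receptor, was at 91.9 CPM in oil2453 and at 321 to 828 CPM elsewhere, again highest in Tax2382, and the part of such cells in the levels of Ucp2 and Cat was not tested.

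Of 6 uncoupling carriers, 4 were tested, and Ucp1 and Ucp3 did not pass the low-count filter. Slc25a14 was lower in every Tamoxifen library, at 2.16 to 3.52 CPM against 3.52 to 6.25 CPM, with the nearest libraries almost equal (log2 fold change -0.70, SE 0.32, edgeR adjusted p = 0.460). It was 1 of the 4 lower without overlap, beside 2.01% of all genes. Peroxide defence genes were all tested, 17 of 17, with 0 called, 12 of them negative and a median log2 fold change of -0.42. Without oil2453 that median was -0.11. Of the 17, 2 were lower without overlap, beside 2.01% of all genes, and 0 were higher, beside 5.87%. Txn1, the cytosolic thioredoxin, was at 1462 CPM in oil2453, 497 to 682 CPM in the other vehicle libraries and 308 to 454 CPM in the Tamoxifen libraries (log2 fold change -1.07, SE 0.37, edgeR adjusted p = 0.326). Prdx2 and Sod1, a peroxiredoxin and the cytosolic superoxide dismutase, were also highest in oil2453, at 436 and 355 CPM. Cat, at the lowest level of the 8 libraries there, differed from these enzymes in its order.

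Acaca, the entry to fatty acid synthesis, was at 36.5, 29.4, 35.8 and 60.3 CPM with Tamoxifen and at 28.9, 41.9, 24.7 and 41.6 CPM with vehicle. Tax2455 was the highest and the remaining 3 Tamoxifen libraries lay inside the vehicle range. The means were 40.5 ± 13.6 and 34.3 ± 8.80 CPM (SD, n = 4), with a log2 fold change of 0.24 (SE 0.28, edgeR adjusted p = 0.761, 95% confidence interval -0.39 to 0.87). It was 0.17 without oil2453 (edgeR adjusted p = 0.889) and -0.01 without Tax2455, so its direction rested on that library. Fatty acid synthesis had 17 of 18 genes tested, 0 called by edgeR and a median log2 fold change of 0.10.

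Acacb, the mitochondrial isoform of the carboxylase, was at 4.42, 2.58, 2.13 and 1.92 CPM with Tamoxifen and at 0.724, 0.881, 0.814 and 1.28 CPM with vehicle, without overlap and with oil2453 at the low end. Its log2 fold change was 1.57 (SE 0.41, edgeR adjusted p = 0.163), or 1.48 without oil2453 (edgeR adjusted p = 0.184), and it was 1 of 17 that DESeq2 called higher, beside 3.78% of all genes. It was also the 1 gene of the 17 higher without overlap, beside 5.87% of all genes. Me1, the malic enzyme that supplies NADPH, was at 65.3 CPM in oil2453 and at 8.16 to 25.2 CPM elsewhere, and its log2 fold change moved from -1.19 (edgeR adjusted p = 0.441) to -0.55 without that library (edgeR adjusted p = 0.718).

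Levels of different genes were compared on the deposited FPKM, which are per length. Plin2 had a median of 742 FPKM over the 8 libraries (range 429 to 1156) and Ucp2 of 441 FPKM (136 to 716). Angptl4 followed with 80.2 FPKM (19.7 to 161, the highest in Tax2604). Lower still were Cat with 25.0 FPKM (12.1 to 32.0), Cpt1a with 19.1 FPKM (9.71 to 25.6), Acaca with 11.2 FPKM (6.89 to 20.7) and Pdk4 with 3.45 FPKM (0.536 to 8.31). Acaca exceeded Pdk4 in 8 of 8 libraries. The other neighbours kept their order in 7 of 8, except Angptl4 above Cat in 6 of 8, and the ranges of all neighbours overlapped. Angptl4 changed rank the most, from the second place in oil2453 to the fifth in oil2315.

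The genes whose log2 CPM over the 8 libraries were most like Angptl4 were Rbpms (Pearson's r 0.996, 0.994 without oil2453), Csrp1 (0.978) and Cdr2 (0.975). Rbpms, an RNA-binding protein, was at 54.1, 29.6, 37.5 and 34.7 CPM with Tamoxifen and at 54.0, 16.5, 15.9 and 19.2 CPM with vehicle. It too placed oil2453 beside the highest Tamoxifen library, with the remaining vehicle libraries at the bottom. Csrp1, a LIM-domain protein of smooth muscle and endothelium, was at 352 CPM in oil2453, 83.0 to 108 CPM in the other vehicle and 194 to 307 CPM in the Tamoxifen libraries. The nearest genes to Ucp2 were Nagpa (0.987), Cotl1 (0.980) and Ndst2 (0.973), and those to Cat were Hsd3b7 (0.990), Slc9a4 (0.983) and Slc25a45 (0.980). Cpt1a was nearest to Car6 (0.982), Fam168a (0.981) and Zfyve20 (0.978), Plin2 to Rraga (0.974), Arl8a (0.946) and Lrrfip2 (0.944), and Acaca to Foxk1 (0.940), Iars (0.938) and Adcy3 (0.937). Pdk4 had the weakest neighbours, Peg12 (0.858), Pccb (0.856) and Tgfb2 (0.813). These were picked as the highest of 14539 genes over 8 points and are descriptions.

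**Figure D4:**
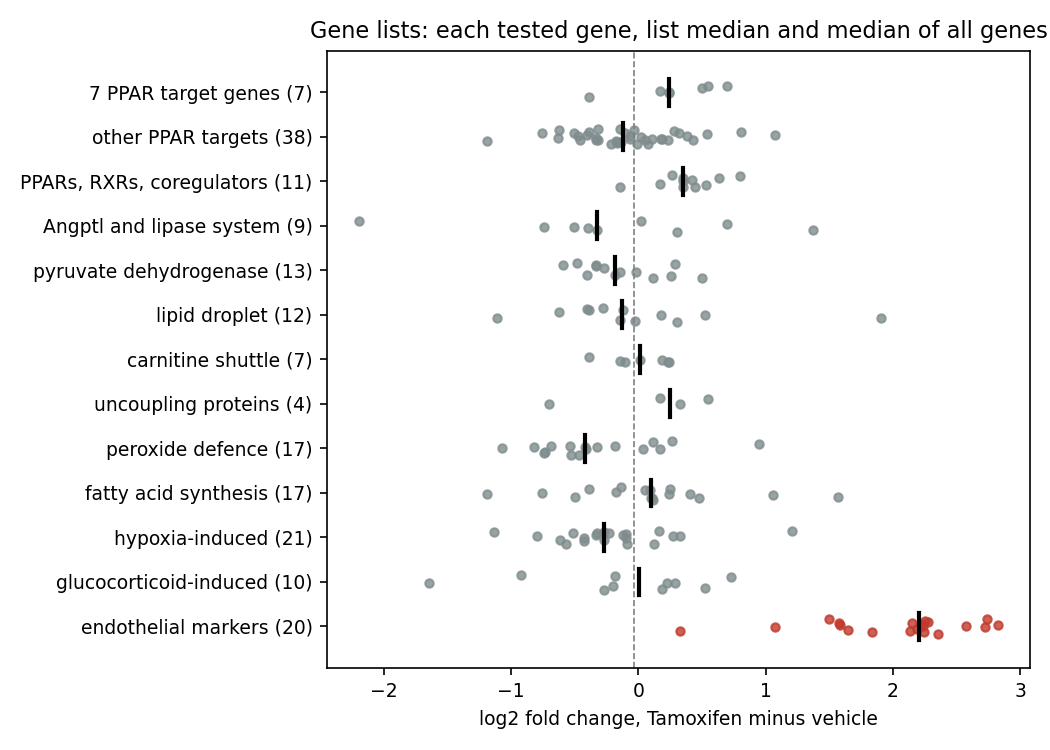
Log2 fold change, Tamoxifen minus vehicle, of every tested gene of the 7 PPAR target genes, of 11 other lists around them and of the pan-endothelial markers (red), with the number tested in brackets. Black bars are list medians and the dashed line is the median of all genes, -0.03, with 0.24 for the 7 genes, -0.12 for the other PPAR targets and 2.21 for the endothelial markers. Vertical scatter within a list has no meaning.

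Other known PPAR targets, most of them enzymes of fatty acid uptake and oxidation, were tested gene by gene and not as a set. Of 53 listed, 38 were tested, 0 were called and 14 had a positive log2 fold change. The median was -0.12, beside -0.03 over all genes. Without oil2453 it was -0.15, beside -0.04 over all genes. Liver, muscle and adipose targets such as Fabp1, Cpt1b, Fgf21, Ucp1, Pck1, Cyp4a10 and Cyp4a14 did not pass the low-count filter. Acadm, the medium-chain acyl-CoA dehydrogenase, was lower in every Tamoxifen library, at 34.2 to 47.0 CPM against 47.2 to 70.7 CPM (log2 fold change -0.46, SE 0.20, edgeR adjusted p = 0.442). It was the 1 gene of the 38 lower without overlap, beside 2.01% of all genes, and 1 of the 38 was higher, beside 5.87%. Cd36, the fatty acid transporter, was at 211, 185, 170 and 65.4 CPM with Tamoxifen and at 36.3, 82.6, 55.4 and 125 CPM with vehicle, with Tax2455 among the vehicle libraries (log2 fold change 1.08, SE 0.44, edgeR adjusted p = 0.430). Fabp4, the fatty acid binding protein of capillaries and fat, was at 230, 165, 250 and 89.8 CPM with Tamoxifen and at 390, 22.4, 69.4 and 124 CPM with vehicle. As for Angptl4, oil2453 was the highest, but oil2368 exceeded Tax2455.

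Of the PPARs, RXRs and their coregulators, 11 of 14 were tested and 0 called, with 10 positive and a median log2 fold change of 0.35, or 0.22 without oil2453. Ppara, Rxrg and the coactivator Ppargc1a did not pass the low-count filter. Pparg was at 5.48 to 11.4 CPM with vehicle and 5.95 to 12.6 CPM with Tamoxifen. Nrip1, a nuclear receptor co-repressor, had a log2 fold change of 0.64 (SE 0.37, edgeR adjusted p = 0.513). Relative to Pecam1 in the same library, Plin2 was at 0.449 to 0.981 with Tamoxifen and at 1.71 to 3.74 with vehicle, and Cpt1a at 0.0841 to 0.118 and 0.154 to 0.479. Cat was at 0.0360 to 0.0660 and 0.0929 to 0.191, so that these 3 genes were lower in every Tamoxifen library on that scale. Pecam1, the divisor, was itself higher in every Tamoxifen library, so a gene of equal CPM in all libraries would also be lower. The share of all genes lower on that scale was not computed. The groups overlapped on that scale for the other 3, Ucp2 at 0.526 to 0.850 and 0.744 to 2.197, Acaca at 0.0333 to 0.0985 and 0.0839 to 0.195, and Pdk4 at 0.00364 to 0.0241 and 0.00454 to 0.0278.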

How the data were processed

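The authors deposited 1 table with read counts and FPKM for 8 libraries, 1 per mouse by their numbers. The submitters' processing notes name TopHat2 2.0.12, Bowtie2 2.2.3, HTSeq 0.6.1 and the build mm8, whereas 99.8% of 34490 shared gene identifiers overlap their GRCm38 position. The FPKM values deposited by the authors were a median 1.23 times the count divided by length and by library total (in the FPKM scale). The authors' test columns (group means, fold changes and p-values) were not used.

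Counts were tested with R 4.3.3 and edgeR 4.0.16 (quasi-likelihood test, TMM, filter for a minimum count of 10, Benjamini-Hochberg adjustment over all genes tested), comparing Tamoxifen with vehicle and no covariate. The common dispersion was 0.194, a biological coefficient of variation of 0.441. DESeq2 1.42.0, limma 3.58.1 (voom, and limma-trend on FPKM with a pseudocount of 1 or 0.1 before log2, kept above 1 in 4 or more libraries), other scalings and filters, and leaving out libraries were alternatives, and the fits were tested on simulated data. Confidence intervals are edgeR's log2 fold change with its moderated degrees of freedom. Likeness was Pearson's r of log2(CPM + 0.5).

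The text names the 7 members, Ppard, up to 3 genes of each list with the smallest p, listed genes that did not pass the filter, the defining markers and the 3 genes most like each member. Other genes named (among them Lpl, Pdk1, Pparg and Plin3) were chosen after their values were seen. The members and lists were chosen with earlier results of these data known. Fits without oil2453 and 1 further library were chosen after seeing the data. Some listed genes are not reported here.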

Additional observations from a re-analysis of the deposited data

How the results depend on the processing

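No paired analysis was possible because the groups share no replicate numbers. The count of called genes, 0 with all libraries, was 177 with library size alone, 68 with no low-count filter, 574 in DESeq2, 796 in DESeq2 without oil2453, 317 on log2(FPKM + 1) and 221 on log2(FPKM + 0.1), and it was 0 with limma-voom, with size factors by the median of ratios, with 10 counts in each library, with protein-coding genes only and on unfiltered log2(FPKM + 1). Leaving out 1 library gave 0 to 256 genes, 256 without oil2453 and 31 without oil2368. Leaving out oil2453 and 1 further library gave 0 to 224, with 224 when that was oil2368 and 1 when it was Tax2382. Angptl4 kept a positive log2 fold change throughout, 0.38 to 2.13 without 1 library, 2.14 in DESeq2 without oil2453 and 2.33 without oil2453 and oil2368, the fits in which it passed the threshold being those of 2.13, 2.14 and 2.33. With all libraries it was 1.35 in limma-voom (adjusted p = 0.488) and 1.41 on log2(FPKM + 1) (limma adjusted p = 0.381), above the 0.69 of edgeR.

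The direction turned for Cpt1a (-0.12 without oil2453 and oil2653), for Cat (-0.011, -0.042 and -0.038 without oil2453 and oil2368, Tax2689 or Tax2382) and for Acaca (-0.0099 without Tax2455, -0.051 without oil2453 and oil2653, -0.087 without oil2453 and Tax2455). The cause was not tested. Over the fits without 1 or 2 libraries the ranges were -0.12 to 0.48 for Cpt1a, -0.042 to 0.28 for Cat and -0.087 to 0.36 for Acaca. Pdk4, Plin2 and Ucp2 kept their direction in all 26 alternatives, and no member but Angptl4 was called in any. At this spread between libraries the interval of Pdk4 ran from 0.488-fold to 4.10-fold, and a change within it could not be resolved.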

Other observations

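Ppard, which is not one of the target genes, had 1 library far from the others of its group. Tax2689 held 70.9 CPM where the other 3 Tamoxifen libraries held 118 to 122 CPM, a gap of 0.937 of the group's range, above the critical value of Dixon's test for 4 libraries, which chance exceeds in about 1 in 20 groups. It was the 1 such gap in 16 groups examined, and 0 of the 14 groups of the target genes had one. In the same library Angptl4, at 103 CPM, and Pdk4, at 2.75 CPM, were the lowest of the Tamoxifen group, and so were Plin2, at 340 CPM, and Acaca, at 29.4 CPM. Ucp2, at 615 CPM, and Cat, at 49.9 CPM, were the second highest there. Cpt1a, at 79.0 CPM, lay between Tax2455, at 72.0 CPM, and the remaining Tamoxifen libraries. For Angptl4 the gap of oil2453 within the vehicle group was 0.816 of the range, just under the same critical value.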
